A study of Drosophila melanogaster with 9 samples.

Results

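Antisense RNA genes are transcribed from the DNA strand opposite to another gene. The deposited table of PGRP-LB mutant brains lists 17562 gene IDs, of which 486 carry the prefix asRNA, the mark of an annotated antisense RNA gene. The 42 described here had a mean of at least 50 normalized counts over the 6 libraries of that table. The other 444 antisense IDs lay below that mean, and 131 of the 486 were at 0 in all 9 libraries. The genes were thus chosen by their level in PGRP-LB Ecc15 and WT control brains together, which is given as a description.

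RNA was measured by poly(A)-selected sequencing of brains dissected from adult female *Drosophila melanogaster* 4 to 6 days old, in 3 groups of 3 libraries, each made from a pool of 20 brains. The exposed mutant group (PGRP-LB Ecc15) consisted of flies of the genotype PGRP-LB mutant, given the bacterium E.cc15 orally for 16 h. E.cc15, or Ecc15, is a Gram-negative plant pathogen (Erwinia carotovora) widely fed to flies as a gut infection. The exposed wild-type group (WT Ecc15) had the same oral infection, and the unexposed group (WT control) consisted of wild-type flies in the control condition. The study asks whether bacterial peptidoglycan that reaches the brain alters gene expression there, and PGRP-LB encodes an enzyme that degrades peptidoglycan. The design text speaks of a 24-hour diet of bacteria or sucrose, the labels of 16 h. Neither the strain background nor the altered stretch of PGRP-LB is given. No unexposed mutant library was used here, so genotype and exposure cannot be told apart in the mutant comparison.

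In flies, antisense RNAs come from many loci of the genome and are mostly known only by an annotation number. Where they pair with the RNA of the opposite strand, the double-stranded stretch can be cut by Dicer-2 into small interfering RNAs that load onto Argonaute 2. Transcription of one strand can also hinder or favour transcription of the other, and a few antisense RNAs have been shown to do so in flies.

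All values are counts that the authors had normalized. Each exposed group stands in a table of its own with the same 3 control libraries, and every table has its own scale. Totals were 25276056 to 27791989 normalized counts per library, and the 42 genes took 0.0356% to 0.0544% of them. PGRP-LB itself had 687, 1359 and 721 normalized counts in PGRP-LB Ecc15 libraries, against 164, 120 and 151 in WT control libraries, so its total is higher in the libraries labelled mutant and does not check the label. All 7 neuronal and all 7 glial marker genes were measured. In PGRP-LB Ecc15 brains 9.65% of all genes tested were called higher and 6.26% lower. Of the 7 glial markers 4 were called lower and none higher, while 1 neuronal marker was called higher and 1 lower. Their part in the results below was not tested, and in bulk RNA fewer cells of a type and less RNA per cell cannot be told apart.

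The 42 antisense RNA genes were of modest level. A mean of 50 to under 100 normalized counts was found for 16 of them, a mean of 100 to under 500 for 21 and a mean of 500 or more for 5. Those 5 held 54.6% of the summed level of the 42. CR45600 alone held 24.2%, with 3168, 2879 and 2927 normalized counts in PGRP-LB Ecc15 libraries, against 1997, 2707 and 3301 in WT control libraries. It lies opposite CG3984 on chromosome 3R. CR44029 followed with 2259, 2244 and 1957 normalized counts in PGRP-LB Ecc15 libraries, against 1226, 1662 and 1728 in WT control libraries. It lies wholly inside the body of unc-13, which encodes a protein that primes synaptic vesicles for release. CR43464 (opposite CG33543), CR44018 (opposite hth, a homeobox transcription factor gene) and CR43259 (opposite CG31089) completed the 5, with means of 646.7, 533.3 and 518.3 normalized counts over the 6 libraries.

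At the low end, ASTR had a mean of 50.33, CR33945 of 50.67 and CR45834 of 51.83 normalized counts. Just below the limit stood CR45210 at 49.33 and CR43906 and CR45133 at 49.0 each. ASTR is one of the few named antisense RNAs of the fly and lies opposite Rga, a gene of the CCR4-NOT deadenylase complex. In PGRP-LB Ecc15 libraries it had 63, 51 and 47 normalized counts, against 36, 38 and 67 in WT control libraries, and the groups overlapped. Of the 42 genes, 31 had a mean of at least 50 in both groups of the table, 7 in PGRP-LB Ecc15 only and 4 in WT control only. The last 11 entered through 1 group, which bears on every count of differences among the 42.

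What the genes have in common beyond level was read from the BDGP6 annotation, in which all 42 symbols were found. Their exons span 406 to 7622 bases (median 1756), and 15 consist of 1 exon block. The plus strand carries 26 of them and the minus strand 16. A share of 3.23% to 84.9% of their exonic bases (median 47.6%) lies inside exons of the opposite strand. For 25 genes there is 1 gene opposite, for 17 there are several, and 16 lie wholly inside opposite gene bodies. CR44690 and CR45479, a neighbouring pair on the X chromosome, overlap each other by 39 bases at their ends. Chromosome arm 3R holds 14 of the 42, the X chromosome 8, arms 2L and 2R 6 each, and arm 3L and chromosome 4 hold 4 each. On the small chromosome 4 these 4 are 40.0% of its 10 antisense IDs, against 3.77% of 106 on arm 3L and 11.8% of 119 on arm 3R.

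Whether an antisense RNA gene was measured at all went with how much of it lies inside exons of the opposite strand. All 31 antisense RNA genes that lie wholly within such exons were at 0 in all 9 libraries. The share at 0 was 40.0% (74 of 185) where 75% to under 100% of the exonic bases were shared, 13.8% (17 of 123) at 50% to under 75%, 5.43% (5 of 92) at 25% to under 50% and 7.27% (4 of 55) below 25%. Of the protein-coding genes wholly within opposite-strand exons 93.3% (70 of 75) were at 0. The share was 22.9% (27 of 118) at 75% to under 100%, 3.23% (4 of 124) at 50% to under 75%, 3.76% (12 of 319) at 25% to under 50% and 6.59% (873 of 13256) below 25%, with 5.17% (480 of 9284) among those with no overlap. In both kinds the share at 0 was highest in the 2 classes with the most overlap. The library kit was stranded, per the labels' protocols, but whether reads were counted by strand is not stated in the sources used here. Without that, RNA of a gene and of its antisense partner cannot be told apart, and why genes inside opposite exons are at 0 was not tested.

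**Figure D1:**
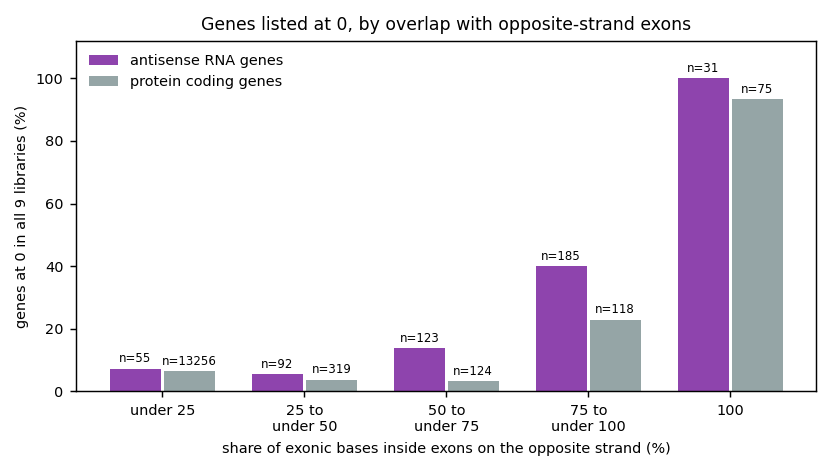
Bars give the percent of genes at 0 in all 9 libraries (vertical axis) by the share of their exonic bases inside exons of the opposite strand (horizontal axis), for antisense RNA genes and protein-coding genes, with the number of genes above each bar. All 31 antisense RNA genes wholly inside opposite exons are at 0, and the lowest class of protein-coding genes includes those with no overlap.

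The 42 measured genes carry exonic bases that no other annotated gene shares, from 84 to 6205 of them (median 1057). Per kb of such bases, the mean over the 6 libraries ranged from 32.0 normalized counts for CR31514 to 2670 for CR45600, with a median of 160. This scale leaves out the shared bases, although it is not stated whether reads there were counted, and the order of the genes depends on it. CR46050 stood at 796 normalized counts per kb of free bases, of which it has 84, fewer than the 100 bases of a read, and at 163 per kb of all its 409 exonic bases. Per kb of all exonic bases CR45600 came first with 971 normalized counts, followed by CR44029 with 343, CR43259 with 313, CR43464 with 264 and CR44981 with 259. CR44018, among the 5 highest by total level, stood at 83.2 on that scale, since it has 6412 exonic bases. Overlaps with a gene on the same strand were found for 3 genes, CR45600 with CG6912, CR43468 with AspRS, and CR46354 with 4 annotated transcripts including mir-252, so their reads could have been split with those genes.

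The first comparison set PGRP-LB Ecc15 against WT control brains. In PGRP-LB Ecc15 brains 5 of the 42 antisense RNA genes were called lower and 4 higher, beside 6.26% and 9.65% of all genes tested. Of these 9, 6 reached a mean of 50 in PGRP-LB Ecc15 only or in WT control only. The largest differences were the near absence of CR44291 and CR44030 from PGRP-LB Ecc15 brains and the high level of CR43864 there. CR42547 and CR44267 were lower as well, and so was CR43259, one of the 5 most abundant. CR45479, CR43468 and CR33945 were higher, by 2.0-fold, 2.16-fold and 2.84-fold in this order on the log2(value + 1) scale.

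Differences were tested with limma on log2(value + 1) over all 13384 genes of the table with a mean of at least 1, and a gene was called at a Benjamini-Hochberg adjusted p under 0.05. Of the 42 antisense RNA genes 9 (21.4%) were called, 4 higher and 5 lower. Without PGRP-LB Ecc15 S2 there were 2 higher and 3 lower, and without PGRP-LB Ecc15 S3 or without WT control S2 there were 2 higher and 4 lower. Calls over all genes also went down in these fits, to 698 higher and 410 lower without PGRP-LB Ecc15 S2, 764 and 409 without PGRP-LB Ecc15 S3 and 892 and 388 without WT control S2, against 1292 and 838 with all libraries. Over all genes tested 15.9% were called, with 9.65% higher and 6.26% lower, and among the 8880 genes with a mean of at least 50 the share was 18.9%. Among the 114 genes of long noncoding RNA (prefix lncRNA) with a mean of at least 50, 24 (21.1%) were called. The rule used the mean of these same 6 libraries, and of the 9 called genes 6 reached a mean of 50 in 1 group only, so nothing about antisense RNA genes as a kind is read from these shares. The median log2 change of the 42 was 0.18, against 0.01 over all genes tested. It was 0.2 for the antisense RNA genes tested below the mean of 50 and 0.12 for the 114 lncRNA genes. With quantile normalization, which moved the median of all genes to -0.09, 2 of the 42 were called higher and 5 lower. By position, 1 called gene on arm 3R was higher and 3 were lower (beside 15.7% of all genes tested on that arm called), 2 on the X chromosome were higher (beside 13.1%), 1 on arm 2R was higher and 1 lower (beside 17.1%) and 1 on chromosome 4 was lower (beside 24.8%). None was called on arms 2L and 3L (beside 433 of 2406 and 393 of 2648 genes tested).

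**Figure D2:**
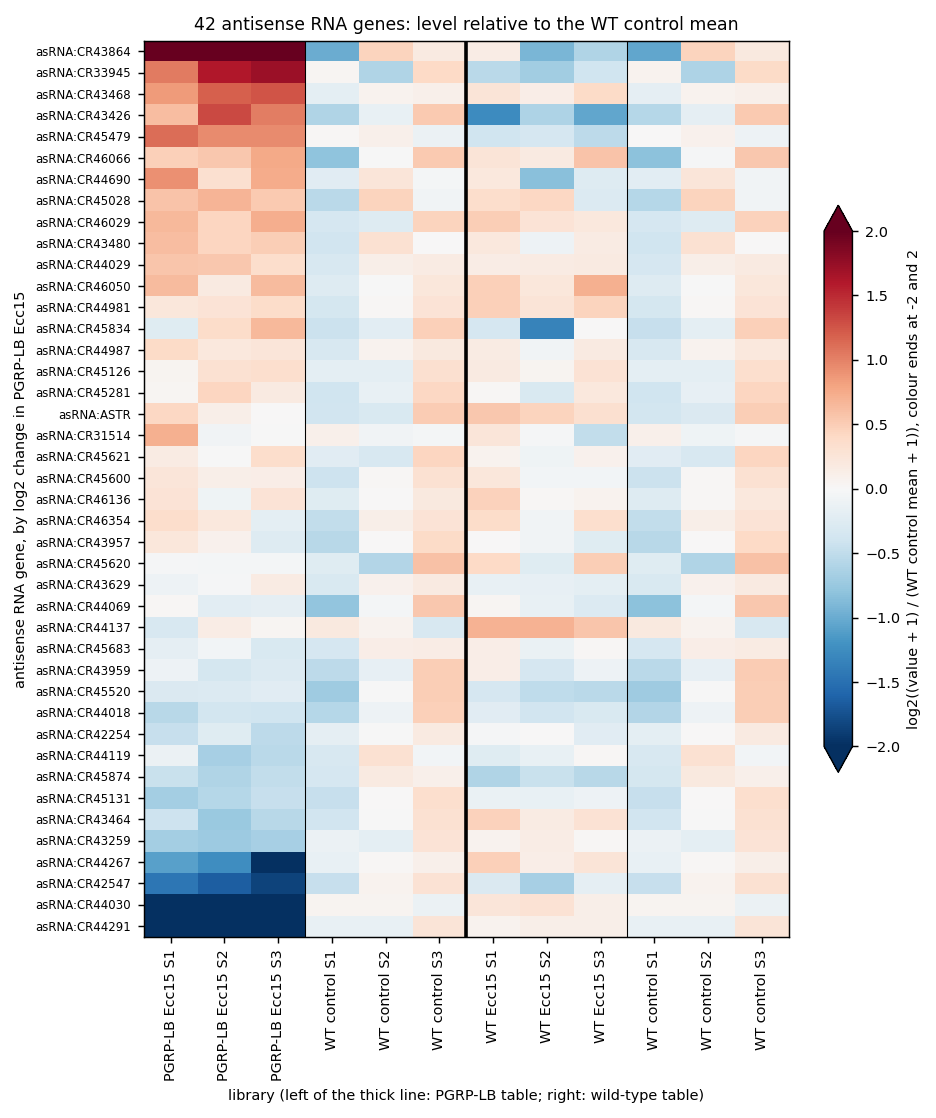
Each row is one of the 42 antisense RNA genes, ordered by log2 change in PGRP-LB Ecc15, and each column a library of the PGRP-LB table (left of the thick line) or the wild-type table (right). Colour gives log2((value + 1) / (WT control mean + 1)), ending at -2 and 2; the darkest blue blocks are CR44030 and CR44291 in the 3 PGRP-LB Ecc15 libraries, and the darkest red block is CR43864.

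CR44291 had 2, 1 and 2 normalized counts in PGRP-LB Ecc15 libraries, against 139, 139 and 183 in WT control libraries. Every control library was far above every mutant library. The log2 change was -5.87 (SE 0.33, limma adjusted p = 0.000111), or 58.5-fold lower. The 1 added before taking logs makes the change of so low a gene look smaller. CR44291 lies on chromosome 3R (8562828 to 8563798, minus strand, BDGP6), and 462 of its 823 exonic bases lie in exons of CG31460 on the other strand. CG31460 was itself barely measured, with 1, 2 and 2 normalized counts in PGRP-LB Ecc15 libraries, against 2, 6 and 6 in WT control libraries, and was not called. In WT Ecc15 brains CR44291 stood at 164, 169 and 170 normalized counts, inside the range of the controls of that table.

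CR44030 had 6, 10 and 2 normalized counts in PGRP-LB Ecc15 libraries, against 210, 211 and 186 in WT control libraries. The groups were again far apart, with a log2 change of -5.05 (SE 0.48, limma adjusted p = 0.00088). It lies on chromosome 4 (959675 to 962692, plus strand, BDGP6), and 299 of its 753 exonic bases lie in exons of fuss, which encodes a transcriptional regulator of the Ski and Sno family. fuss had 398, 429 and 425 normalized counts in PGRP-LB Ecc15 libraries, against 373, 353 and 418 in WT control libraries, and was not called (log2 change 0.13, SE 0.1). The large difference in CR44030 therefore stood beside overlapping values of the gene on the other strand. Per kb of free bases CR44030 stood at 13.2 normalized counts in PGRP-LB Ecc15 and 446 in WT control brains.

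CR43864 went the other way, with 274, 222 and 227 normalized counts in PGRP-LB Ecc15 libraries, against 10, 29 and 24 in WT control libraries. The log2 change was 3.58 (SE 0.39, limma adjusted p = 0.00154), or 11.9-fold higher. It lies near the tip of the X chromosome (1902028 to 1903733, plus strand, BDGP6), and its exons contain all 937 exonic bases of CG32801 on the other strand. CG32801 was at 0 in all 9 libraries, like most genes placed in this way, and could not be tested. A second gene opposite, Edem1, shares 30 bases with it and was not called (log2 change 0.30, limma adjusted p = 0.0672). In WT Ecc15 brains CR43864 stood at 24, 11 and 14 normalized counts, overlapping the controls.

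CR42547 on chromosome 2R had 60, 52 and 45 normalized counts in PGRP-LB Ecc15 libraries, against 119, 173 and 202 in WT control libraries. The lowest control value, 119, lay above the highest mutant value, 60, and the controls spread widely. The log2 change was -1.61 (SE 0.25, limma adjusted p = 0.00694). CR44267 on chromosome 3R had 36, 32 and 16 normalized counts in PGRP-LB Ecc15 libraries, against 70, 79 and 83 in WT control libraries. Its log2 change was -1.51 (SE 0.35, limma adjusted p = 0.028), and the call was lost without PGRP-LB Ecc15 S2 (limma adjusted p = 0.0691) or without any 1 of the WT control libraries (0.0652 to 0.0885). CR43259 on chromosome 3R had 398, 387 and 405 normalized counts in PGRP-LB Ecc15 libraries, against 593, 557 and 770 in WT control libraries. All mutant values lay below all control values, by a log2 change of -0.67 (SE 0.13, limma adjusted p = 0.0165), and the call was lost without any 1 of the 3 mutant libraries (limma adjusted p = 0.0624 to 0.068).

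CR45479 on the X chromosome had 189, 169 and 168 normalized counts in PGRP-LB Ecc15 libraries, against 88, 93 and 80 in WT control libraries. These libraries were close to each other within each group, and the log2 change was 1.0 (SE 0.16, limma adjusted p = 0.00694). CR43468 on chromosome 2R had 73, 93 and 97 normalized counts in PGRP-LB Ecc15 libraries, against 35, 42 and 43 in WT control libraries. Its log2 change was 1.11 (SE 0.23, limma adjusted p = 0.0196). CR33945 on chromosome 3R, opposite the end of betaGlu (a beta-glucuronidase gene), had 55, 82 and 88 normalized counts in PGRP-LB Ecc15 libraries, against 27, 17 and 35 in WT control libraries. The groups did not overlap, with a log2 change of 1.50 (SE 0.35, limma adjusted p = 0.029). CR43468 lost its call without PGRP-LB Ecc15 S2, PGRP-LB Ecc15 S3 or WT control S2 (limma adjusted p = 0.0531 to 0.0808) and with quantile normalization (0.0953). CR33945 lost its call without any 1 of the mutant libraries, WT control S1 or WT control S2 (limma adjusted p = 0.0542 to 0.111) and with quantile normalization (0.0802).

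**Figure D3:**
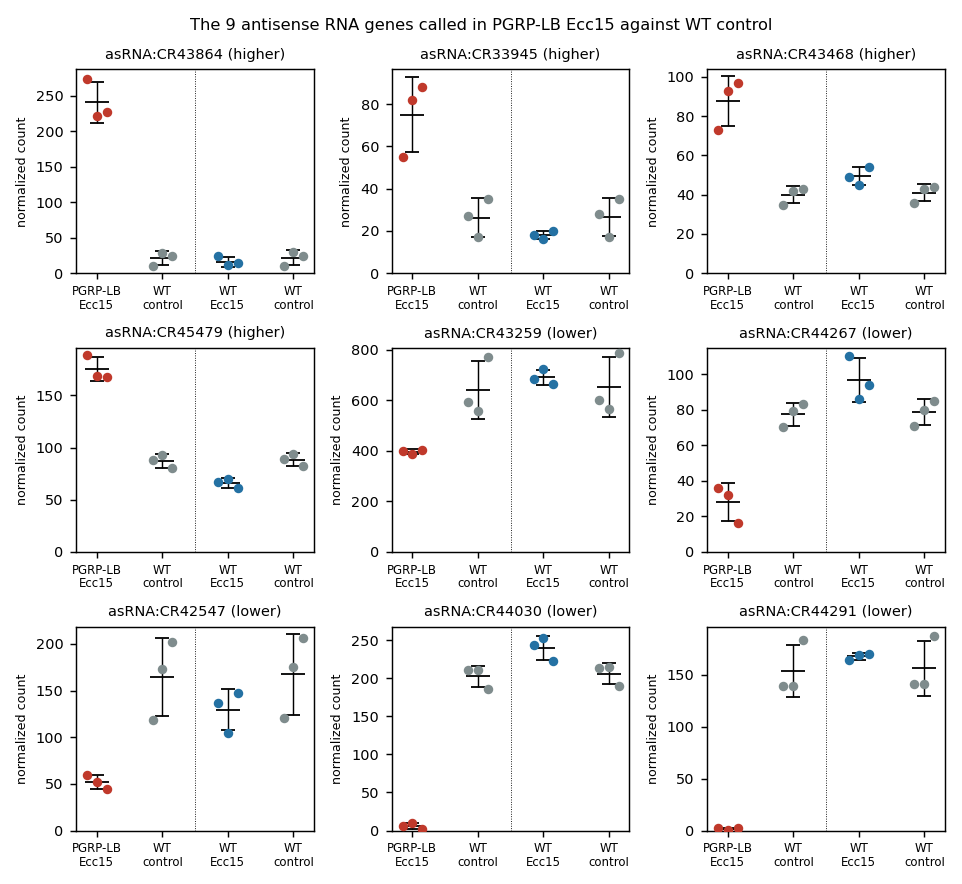
Each panel shows one of the 9 antisense RNA genes called in PGRP-LB Ecc15 against WT control, with normalized counts on the vertical axis from 0, points for libraries, and bars for the mean ± SD of 3 libraries. PGRP-LB Ecc15 with its controls stands left of the dotted line and WT Ecc15 with its controls right of it; for CR44291 and CR44030 the PGRP-LB Ecc15 points lie near 0 and the WT Ecc15 points lie near or above the controls.

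Among the 33 genes not called, 10 more had groups that did not overlap. In all 19 of the 42 did not overlap, beside 35.7% of all genes tested and 41.7% of those with a mean of at least 50. In PGRP-LB Ecc15 brains 10 were higher (beside 18.8% of all genes) and 9 lower (beside 16.9%). The abundant CR44029 was the closest to a call, at 2150 ± 170 normalized counts in PGRP-LB Ecc15 and 1540 ± 273 in WT control brains (SD, n = 3 each), with a log2 change of 0.50 (SE 0.14, limma adjusted p = 0.0527). In the authors' deposited table its adjusted p is 0.00886. CR43464 had 577, 463 and 523 normalized counts in PGRP-LB Ecc15 libraries, against 595, 766 and 956 in WT control libraries (log2 change -0.55, SE 0.18, limma adjusted p = 0.0828). CR43426, with 64, 105 and 85 normalized counts in PGRP-LB Ecc15 libraries against 27, 37 and 60 in WT control libraries, had a larger change but a wider spread (log2 change 1.06, SE 0.35, limma adjusted p = 0.0858). CR45600 and CR44018 overlapped between groups, with log2 changes of 0.19 (SE 0.17) and -0.37 (SE 0.25). The remaining genes not called had log2 changes between -0.53 and 0.69. The authors' deposited table gives an adjusted p under 0.05 to 12 of the 42, 5 higher and 7 lower, beside 17.4% of all genes.

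The genes on the opposite strand were set beside the antisense RNA genes. For each, the partner was the protein-coding gene with the largest overlap of gene bodies, introns included. By exonic bases the choice would differ in places. CR45683 shares 0 with its partner CG42784 and 2008 with Tehao, and CR45131 shares 471 with its partner CG43340 and 1040 with CG43341. Of these 42 partners 36 could be tested and 5 were called, beside 15.9% of all genes tested. Among the 9 antisense RNA genes called, 3 had a partner called in the same direction, 0 had one called in the opposite direction, 4 had a partner that was tested and not called, and 2 had a partner at 0. Among the 33 antisense RNA genes not called, 2 had a called partner, bip2 opposite CR45126 (log2 change 0.35, limma adjusted p = 0.00549) and CG33543 opposite CR43464 (log2 change -0.36, limma adjusted p = 0.0227). These counts leave out further genes opposite, some of which were called higher. They were dbr opposite CR44987 (log2 change 0.87, limma adjusted p = 0.000496), CG7702 opposite CR45028 (0.8, 0.00715) and Nmda1 opposite CR43468 (0.32, 0.0189). Since counting by strand is not stated, a shared direction within a pair is a description only.

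Among the partners chosen by overlap of gene bodies, the first of the 3 pairs with a shared direction was CR42547 and CG15674. CG15674 had 23, 22 and 17 normalized counts in PGRP-LB Ecc15 libraries, against 41, 85 and 91 in WT control libraries (log2 change -1.69, SE 0.37, limma adjusted p = 0.0243). Among the controls both genes were lowest in S1, as were 32 of the 42 antisense RNA genes and 15 of 31 partners with a mean of at least 50. Of the 1809 exonic bases of CG15674, 1412 lie inside exons of CR42547. The call of CG15674 was lost without any 1 of the mutant libraries, WT control S2 or WT control S3 (limma adjusted p = 0.0685 to 0.0893). PIG-S, which encodes a subunit of the enzyme that attaches GPI anchors to proteins, had 742, 708 and 742 normalized counts in PGRP-LB Ecc15 libraries, against 1060, 1057 and 1220 in WT control libraries. Its log2 change was -0.60 (SE 0.08, limma adjusted p = 0.00426), beside -1.51 for CR44267 opposite it. Cyp4d14, a cytochrome P450 gene opposite CR45479, had 9, 8 and 6 normalized counts in PGRP-LB Ecc15 libraries, against 1, 1 and 1 in WT control libraries (log2 change 2.10, SE 0.40, limma adjusted p = 0.0141). Of its 1694 exonic bases 1629 lie inside CR45479. Per kb of exonic bases CR45479 had 55.2 and Cyp4d14 2.56 normalized counts, as means over the 6 libraries. In the authors' deposited table Cyp4d14 has an adjusted p of 0.102.

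In 4 pairs the called antisense RNA gene stood beside a partner that was not called. These were CR44291 with CG31460 and CR44030 with fuss, described above, CR43259 with CG31089 and CR33945 with betaGlu. CG31089 had a log2 change of -0.26 (SE 0.29, limma adjusted p = 0.599) and betaGlu of -0.17 (SE 0.08, limma adjusted p = 0.203). CR33945 shares 131 of its 1393 exonic bases with betaGlu, so most of it is free of the other gene. Whether the change of an antisense RNA gene differed from that of its partner was not tested.

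**Figure D4:**
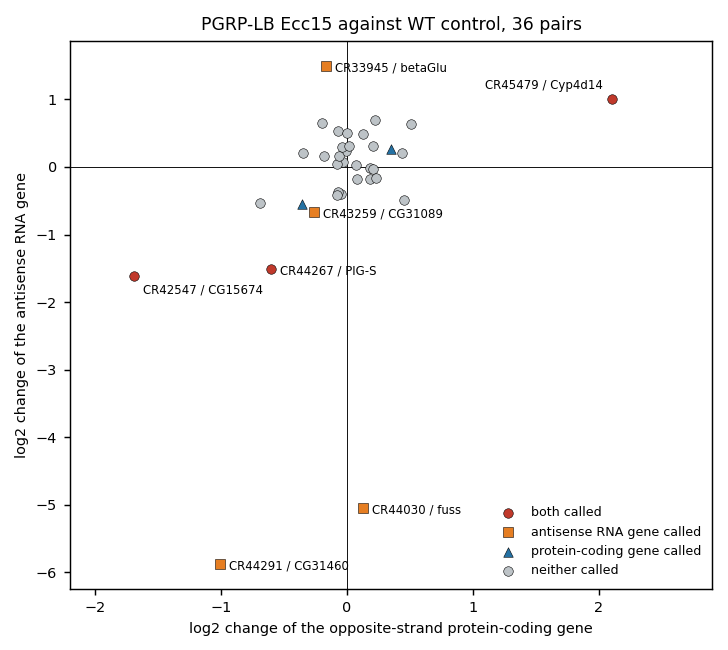
Each point is 1 of 36 pairs, with the log2 change of the opposite-strand protein-coding gene on the horizontal axis and that of the antisense RNA gene on the vertical axis, both for PGRP-LB Ecc15 against WT control. Symbols mark which genes were called; CR44291 and CR44030 lie at the bottom at -5.87 and -5.05 with partners near -1.01 and 0.13, and the 3 pairs called on both strands lie in the lower left and upper right.

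Levels on the 2 strands, taken as the mean over the 6 libraries per kb of exonic bases, differed widely. The partner had the higher level per kb in 25 pairs and the antisense RNA gene in 17. It is not stated whether reads in shared bases were counted, so these values need not give the levels of the 2 strands. At one end CR45874 stood at 74.3 normalized counts per kb, which is 0.899% of the level of RpS9, a ribosomal protein gene. CR45834 stood at 128 normalized counts per kb, or 3.4% of the level of alpha-Spec, the spectrin gene inside which it lies. At the other end, among partners above 0, CR43426 stood at 26.9 normalized counts per kb beside 0.134 for CG32462 and CR44690 at 11.3 beside 0.0676 for Cyp4d2. Most of both partners lies inside exons of the antisense RNA gene, 1102 of 1243 exonic bases for CG32462 and 2436 of 2467 for Cyp4d2. In total counts 6 partners had a mean below 1 normalized count. Of these, 4 were at 0 in all 9 libraries, namely CG3984 opposite CR45600, Alp6 opposite CR45281, Lfg opposite CR43468 and CG32801 opposite CR43864. In each of these 4 pairs every exonic base of the protein-coding gene lies inside exons of the antisense RNA gene.

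CR45874 and RpS9 lay on opposite sides of their controls, and neither was called. CR45874 had 56, 50 and 54 normalized counts in PGRP-LB Ecc15 libraries, against 60, 87 and 82 in WT control libraries. RpS9 had 9546, 9652 and 9823 normalized counts in PGRP-LB Ecc15 libraries, against 8610, 6867 and 5978 in WT control libraries. Neither pair of groups overlapped, with log2 changes of -0.49 for CR45874 (SE 0.23, limma adjusted p = 0.194) and 0.45 for RpS9 (SE 0.13, limma adjusted p = 0.0523). Of the 873 exonic bases of CR45874, 512 are shared with exons of RpS9.

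Genes within 10 kb of the called antisense RNA genes were examined as well. Of 51 tested, 7 were called higher and 4 lower, beside 15.9% of all genes tested. Near CR43468, AspRS (the aspartyl-tRNA synthetase gene, which overlaps it on the same strand) had a log2 change of 0.55 (limma adjusted p = 0.0107). Nmda1, which overlaps CR43468 on the opposite strand, and the antisense RNA gene CR45140 were called higher too, with log2 changes of 0.32 and 2.54. CR45140 stood at 14.0 ± 4.0 normalized counts in PGRP-LB Ecc15 and 1.67 ± 1.15 in WT control brains (SD, n = 3 each). Near CR45479, CG3630 was called higher (log2 change 1.16, limma adjusted p = 0.0387), as was Cyp4d14. Near CR44267, Mink was called lower (log2 change -1.50, limma adjusted p = 0.0144) along with PIG-S. 4E-T, which encodes a protein of mRNA storage and decay granules that binds eIF4E, was called higher beside CR44030 (log2 change 0.34, limma adjusted p = 0.00977). CG42235 was called lower beside CR43259 (log2 change -0.44, limma adjusted p = 0.0275). CG2187, beside CR33945, was called higher at 2.33 ± 0.577 normalized counts in PGRP-LB Ecc15 brains and 0 in all WT control libraries (SD, n = 3, limma adjusted p = 0.0375). No tested neighbour of CR44291 (5 tested) or CR43864 (5 tested) was called.

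The second comparison set WT Ecc15 against WT control brains, which per the labels differ in exposure. None of the 42 antisense RNA genes was called by limma in the wild type, beside 0.122% of all 13085 genes tested (16 genes, 0.122% higher and 0.0% lower). At an unadjusted p under 0.05 there were 3 of the 42, beside 7.28% of all genes, and the authors' deposited table calls 0 of the 42, beside 1.09%. Groups did not overlap for 7 genes, beside 12.6% of all genes tested, with 4 higher (beside 6.93%) and 3 lower (beside 5.67%). The log2 changes ran from -0.90 to 0.66, with a median of 0.07, against -5.87 to 3.58 in the mutant comparison. Both comparisons share the control libraries, and whether the changes differ between them was not tested.

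The smallest p in the wild type belonged to CR44137, which lies inside Csk, the gene of an inhibitory kinase of Src. It had 217, 217 and 198 normalized counts in WT Ecc15 libraries, against 154, 141 and 107 in WT control libraries. All 3 exposed libraries lay above all 3 controls, with a log2 change of 0.66 (SE 0.17, limma adjusted p = 0.429). In PGRP-LB Ecc15 brains the same gene stood at 105, 146 and 136 normalized counts, overlapping its controls at 152, 139 and 105. CR44981, inside the synaptic gene sky, had 436, 374 and 428 normalized counts in WT Ecc15 libraries, against 244, 317 and 378 in WT control libraries, and the groups overlapped (log2 change 0.42, SE 0.17, limma adjusted p = 0.655). CR43426 had 17, 27 and 20 normalized counts in WT Ecc15 libraries, against 28, 37 and 61 in WT control libraries (log2 change -0.90, SE 0.37, limma adjusted p = 0.677).

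Set side by side, 4 antisense RNA genes lay above all controls in one exposed group and below all controls in the other. CR43426 and CR45479 lay above the controls in PGRP-LB Ecc15 and below them in WT Ecc15 brains. CR45479 had 67, 70 and 61 normalized counts in WT Ecc15 libraries, against 89, 94 and 82 in the WT control libraries of that table. CR44030 and CR44267 lay below the controls in PGRP-LB Ecc15 and above them in WT Ecc15 brains. None of the 4 changes in WT Ecc15 brains was called (limma adjusted p = 0.677 to 0.758). CR44030 had 243, 253 and 223 normalized counts in WT Ecc15 libraries, against 213, 215 and 190 in WT control libraries. CR44267 had 110, 86 and 94 normalized counts in WT Ecc15 libraries, against 71, 80 and 85 in WT control libraries. Such a pattern was found in 0.934% of the 12851 genes tested in both comparisons. CR43426 reached a mean of 50 in PGRP-LB Ecc15 only, and CR44030 and CR44267 did so in WT control only. The choice by level thus favoured such genes, and nothing about antisense RNA genes as a kind is read from the 4. CR43468 lay above all controls in both exposed groups and CR45874 below. CR45874 had 51, 57 and 53 normalized counts in WT Ecc15 libraries, against 61, 89 and 84 in WT control libraries.

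Within groups, the 42 genes varied most among the WT control libraries. Control library S1 held the lowest control value for 32 of the 42 (76.2%), beside 30.8% of all 8880 genes with a mean of at least 50 and 60.5% of the 114 lncRNA genes. Control library S3 held the highest control value for 32 of the 42 (76.2%), beside 35.0% of all such genes and 71.1% of the lncRNA genes. The median gene of the 42 stood 1.43-fold higher in S3 than in S1, against 0.974-fold over all such genes and 1.31-fold over the lncRNA genes. Among those of the 42 with more than 50 normalized counts in every control library, CR46066, CR44069 and CR45520 had the largest fold of S3 over S1. CR46066 had 54, 94 and 137 normalized counts in S1, S2 and S3, CR44069 had 75, 128 and 190, and CR45520 had 76, 124 and 176. For CR44137, CR44030, CR45479 and CR31514 the value was lower in S3 than in S1.

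The spread on the log2 scale was larger among the controls than among the PGRP-LB Ecc15 libraries for 35 of the 42 genes (83.3%). The same held for 59.9% of all genes with a mean of at least 50 and 69.3% of the lncRNA genes with such a mean. The control spread was larger than that among the WT Ecc15 libraries for 37 of the 42 (88.1%), beside 71.4% of all such genes and 81.6% of the lncRNA genes. Of the opposite-strand partners with a mean of at least 50, 15 of 31 were lowest in control S1 (48.4%), and their median fold of S3 over S1 was 1.1.

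Markers of other tissue varied between libraries as well, and some did so by group. The calls below stand beside 9.65% of all genes tested called higher and 6.26% lower. In PGRP-LB Ecc15 brains the summed muscle markers stood at 28425 to 48695 normalized counts, against 19389, 22155 and 6362 in WT control S1, S2 and S3. Of the 17 muscle markers 2 were called higher (Act79B and sls) and 0 lower. TpnC4, Act88F and fln had log2 changes below 0 (-1.12, -0.28 and -0.18). The summed haemocyte markers stood at 22434 to 30690 normalized counts in PGRP-LB Ecc15 and 37607 to 42308 in WT control libraries, with 5 of 14 called lower (vkg, Col4a1, NimC4, PPO1 and PPO2). Neither of these sums overlapped between the groups. The haemocyte markers with the highest control means, Col4a1 and vkg, stood at 5750 and 4680 normalized counts in PGRP-LB Ecc15 brains. In WT control brains they stood at 10600 and 9270. Of the 14 haemocyte markers 3, crq, srp and eater, had log2 changes above 0 (0.36, 0.66 and 0.3), with 0 called higher. The sums of the other tissues overlapped. Fat body markers summed to 89915 to 534781 normalized counts in PGRP-LB Ecc15 and 94730 to 246401 in WT control libraries. Of 11 tested, 2 were called higher (Lsp1beta and Fbp2) and 0 lower, while Fbp1 and Lsp2 had log2 changes below 0 (-0.76 and -0.38). Fbp2 was low, at 8, 5 and 9 normalized counts in PGRP-LB Ecc15 libraries and 0 in all WT control libraries. Tracheal and cuticle markers summed to 1346 to 2521 normalized counts in PGRP-LB Ecc15 and 1239 to 1559 in WT control libraries. Of 10 tested, 2 were called higher (serp and kkv) and 0 lower, while Gasp and obst-A had log2 changes below 0 (-0.97 and -0.8). Photoreceptor markers summed to 35534 to 164343 normalized counts in PGRP-LB Ecc15 libraries, against 315697, 381952 and 64577 in WT control S1, S2 and S3, with 0 called. Among all these markers ninaA, which lies wholly within exons of the other strand, was at 0 in all libraries.

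Of these markers 0 were called in the wild-type comparison (beside 0.122% of all genes tested), and Lsp1alpha as well as ninaA was at 0 there. The haemocyte sum was 45704 to 57380 normalized counts for the WT Ecc15 libraries, against 38399 to 42960 for the controls of that table. The fat body sum was 281234 to 397236 normalized counts for WT Ecc15, against 96717 to 249689 for the controls. Both sums were thus higher in every exposed library than in any control. The muscle sum was 7435 to 14419 normalized counts for WT Ecc15, against 6496 to 22525 for the controls, and overlapped. So did the photoreceptor sum, at 105636 to 241977 normalized counts for WT Ecc15 against 65933 to 388328 for the controls. The tracheal and cuticle sum was 903 to 2973 normalized counts for WT Ecc15, against 1266 to 1584 for the controls. The part of other tissue in the levels and the spread of the antisense RNA genes was not tested.

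**Figure D5:**
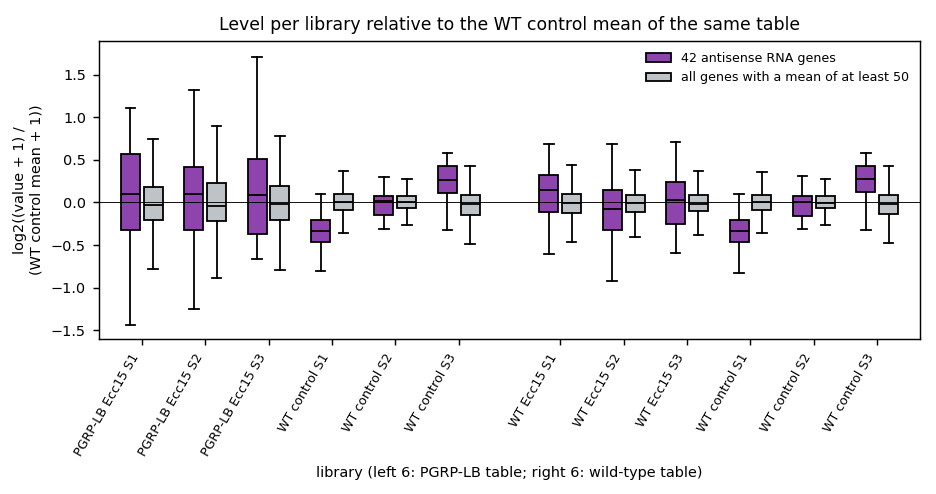
Boxes give the quartiles and median of log2((value + 1) / (WT control mean + 1)) per library for the 42 antisense RNA genes and for all genes with a mean of at least 50, with whiskers to the usual box plot range and values beyond them left out. Among the WT control libraries the antisense boxes lie low in S1 and high in S3 while the boxes of all genes stay near 0.

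Summed over the 42 genes, the groups overlapped. The summed level of the 42 genes was 12242, 11765 and 11758 normalized counts in PGRP-LB Ecc15 libraries, against 8995, 11443 and 13893 in WT control libraries. The PGRP-LB Ecc15 sums lay inside the range of the controls. In the other table the sums were 13033, 11576 and 12119 normalized counts in WT Ecc15 libraries, against 9117, 11633 and 14182 in WT control libraries, again inside the range of the controls.

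Genes whose products act on double-stranded or antisense RNA were looked at beside the 42. Of 14 tested genes of the small RNA and double-stranded RNA machinery, 1 was called higher (beside 9.65% of all genes) and 3 lower (beside 6.26%) in PGRP-LB Ecc15 brains, and 0 were called in WT Ecc15 brains. Hen1, which methylates the ends of small RNAs, had 105, 146 and 108 normalized counts in PGRP-LB Ecc15 libraries, against 212, 192 and 211 in WT control libraries (log2 change -0.79, SE 0.18, limma adjusted p = 0.0255). drosha, the nuclease that cuts microRNA precursors in the nucleus, had a log2 change of -0.50 (limma adjusted p = 0.0109), and armi, a helicase of the piRNA pathway, of -0.43 (limma adjusted p = 0.0408). pst, an antiviral gene, was higher (log2 change 0.87, limma adjusted p = 0.047). The median log2 change of the 14 was -0.01, against 0.01 over all genes tested. Dcr-2, which encodes Dicer-2, was not called, at 1330 ± 74.2 normalized counts in PGRP-LB Ecc15 and 1300 ± 90.9 in WT control brains (SD, n = 3 each). Of 15 tested genes of RNA decay, which include exosome subunits and nonsense-mediated decay factors, 0 were called in either comparison.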

How the data were processed

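Stranded poly(A) libraries were made from 250 ng of total RNA and sequenced in 1 lane with paired reads of 100 bases, per the labels' protocols. Per the submitters' processing notes the authors used HISAT2, HTSeq, featureCounts and DESeq2. What each did, the genome build and the use of strand are not stated there. The deposited values are whole numbers, yet the same control libraries differ between the tables by constant factors (1.013, 1.017 and 1.021), so they were treated as scaled and rounded counts, a score, and not as raw counts. The authors' fold change, its log2 value and p-value are further deposited columns, per the file headers, used only where the authors' table is named.

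Each table was fitted alone with limma 3.58.1 (R 4.3.3, trend, two-sided) on log2(value + 1), keeping genes whose mean was at least 1, with Benjamini-Hochberg adjustment over all of them and a threshold of 0.05. Alternatives were other pseudocounts, filters and scalings (quantile normalization, and the trimmed mean of M values, TMM), robust moderation, each library left out and the authors' adjusted p. Gene positions, exons and strands are from BDGP6, matched by symbol; 16839 of the 17562 IDs matched by symbol and 617 through a RefSeq synonym. The antisense RNA genes and the other lists were chosen with earlier results of these data known. Named genes were those called, the 5 highest, the 3 smallest p in the wild type, those next to the mean of 50 and those going opposite ways in the exposed groups, with the partners of those called; other members, neighbours and partners named were chosen after their values were seen. Column marks S1 to S3 match no replicate number in the titles, so libraries carry the marks. Each library is a pool of different flies, and p-values measure the spread between pools.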

Additional observations from a re-analysis of the deposited data

Results flagged for a closer look

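In 4 antisense RNA genes every library of one exposed group lay on one side of all control libraries and every library of the other exposed group on the other side, a pattern found in 0.934% of the 12851 genes tested in both comparisons. CR43426 had a log2 change of 1.06 in PGRP-LB Ecc15 and -0.90 in WT Ecc15 against WT control. For CR45479 the log2 changes were 1.0 in PGRP-LB Ecc15 and -0.42 in WT Ecc15. CR44030 had -5.05 in PGRP-LB Ecc15 and 0.22 in WT Ecc15, and CR44267 had -1.51 in PGRP-LB Ecc15 and 0.29 in WT Ecc15. The difference between the exposed groups was not tested, because no table holds both. Both changes of each gene are taken against the same 3 control libraries. CR43426 reached a mean of 50 in PGRP-LB Ecc15 only, and CR44030 and CR44267 in WT control only, so the choice by level favoured this pattern. None of the 4 changes in WT Ecc15 was called (limma adjusted p = 0.677 to 0.758), nor was that of CR43426 in PGRP-LB Ecc15 (limma adjusted p = 0.0858).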

How the results depend on the processing

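CR44291, CR44030, CR43864, CR42547 and CR45479 kept direction and call in all 14 alternatives tried for each in the mutant comparison. CR33945 lost its call in 6, CR43468 and CR44267 in 4 each and CR43259 in 3, all with the same direction. The leave-one-out fits use fewer libraries, and the cause of the lost calls was not tested. Against 4 higher and 5 lower, quantile normalization called 2 higher and 5 lower. Leaving out 1 library at a time gave 2 to 6 higher and 3 to 6 lower, beside 698 to 1047 higher and 388 to 662 lower over all genes (1292 and 838 with all libraries). Only the members change in the next counts: 2 higher and 3 lower among genes with a mean of at least 100, 7 higher and 6 lower among the 97 with a mean of at least 20, and 1 higher and 2 lower among the 31 with a mean of at least 50 in both groups. In the wild type 0 were called under every alternative. CR44029 was called in 3 alternatives, CR43464 in 2 and CR43426 in 1. The sign turned under quantile normalization for ASTR (-0.19) and CR45834 (-0.12) in the mutant, and with 1 library left out for CR44137 in the mutant (-0.18 to 0.11), CR44018 in the wild type (-0.49 to 0.04) and CR45600 in the wild type (-0.12 to 0.24); none of these was called. The median of all genes moved to -0.09 with quantile normalization. No paired analysis was possible because the columns carry no replicate numbers of the titles, and control and exposed groups share fewer than 2 numbers. Depth limits the low values: 1 to 10 normalized counts in CR44291 and CR44030 rest on a handful of reads, and counts before scaling were not used here.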
